A study of Mus musculus with 4 samples.

Results

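The genes described here carry a cell through mitosis: cyclins and mitotic kinases, the spindle checkpoint, the chromosomal passenger complex, the kinetochore, mitotic kinesins, chromosome structure, cytokinesis, and separase with its inhibitor securin. They are 46 genes listed by name, with no threshold on their values. Each was read from its brightest probe set with a single gene symbol, by the mean over all arrays. Of the 46, 45 had such a probe set, out of 18193 genes measured. Ccnb1, which encodes cyclin B1, had none under this rule and was not analysed here.

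The data came from 4 whole-genome mouse Affymetrix arrays of sorted tumour epithelial cells. The tumours were skin squamous cell carcinomas raised by chemical treatment and labelled as malignant. Sox2-GFP-positive cells (n = 2 arrays) were set against Sox2-GFP-negative cells (n = 2 arrays), in which the green fluorescent reporter of the transcription factor Sox2 was not seen. All cells of both groups had been gated as alive, positive for the epithelial protein Epcam, and negative for CD45, CD31 and CD140a, the surface proteins of leukocytes, endothelium and mesenchyme. The series text gives 2 carcinomas from 2 mice as the source of both groups, so the positive and negative cells share animals, but no label ties an array to a mouse. The labels used here give no strain, age or driver of the reporter. The values are the authors' log2 values, and the number of arrays limits their precision.

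In mitosis, cyclin-dependent kinase 1 with its B-type cyclins drives entry, and the kinetochore links each chromosome to spindle microtubules. The spindle checkpoint holds back the anaphase-promoting complex until every kinetochore is attached, after which separase opens the cohesin rings and the cell divides. Transcripts of most of these genes build up in G2 and M phase and are low in resting cells. For that reason they serve as markers of dividing cells in the basal layer of the epidermis and in its carcinomas.

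As a group the mitosis genes lay higher in Sox2-GFP-positive cells. Both positive arrays lay above both negative arrays in 38 of the 45 measured genes, or 84.4%, where 35.5% of all genes did so. Both lay below in 1, Pttg1, where 14.0% of all genes did so, and the groups overlapped in 6. The median log2 difference was 0.61 over these genes and 0.14 over all 18193 genes, so that the mitosis genes stood 0.47 above the array as a whole. The separate differences ran between -0.29 and 1.37. The median level of the 45 genes was 8.40 and 8.41 in the positive arrays, against 7.77 and 7.92 in the negative arrays. Arrays of one group differed from each other by a median of 0.18 per gene in either group. In 35 of the 45 genes the difference between the groups, in either direction, was larger than that gene's own difference within each group. The share of all genes for which this holds was not taken.

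The difference was above 0 in 43 of the 45, against 66.0% of all genes. It was at least 1 log2 unit in 7, against 2.69% of all genes, and in 4 the nearest arrays of the groups were that far apart, against 0.665% of all genes.

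No single gene passed the test across the whole array. In limma with Benjamini-Hochberg adjustment over all genes, adjusted p for the 45 ran from 0.18 to 0.869, and 0% of the 18193 genes were called at 0.05. At an unadjusted limma p under 0.05 stood 24 of the 45, all higher in positive cells, where 9.75% of all genes stood there as higher and 5.22% as lower. With the replicate number as a block, limma called none of the 45 (lowest adjusted p = 0.0833, for Cenph), against 0.0715% of all genes called higher and 0.868% lower. An exact permutation test of 2 arrays against 2 cannot go below p = 0.333. The call depended on how the arrays were scaled. Set to equal poly-A spike-in signal, limma called 44 of the 45 genes higher, but also 69.0% of all genes, and the mitosis genes stood as far above the median gene as before, by 0.47. The values below are therefore given as measured, gene by gene. In RNA from sorted cell populations, a larger share of dividing cells cannot be told apart from more transcript in each of them.

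**Figure D1:**
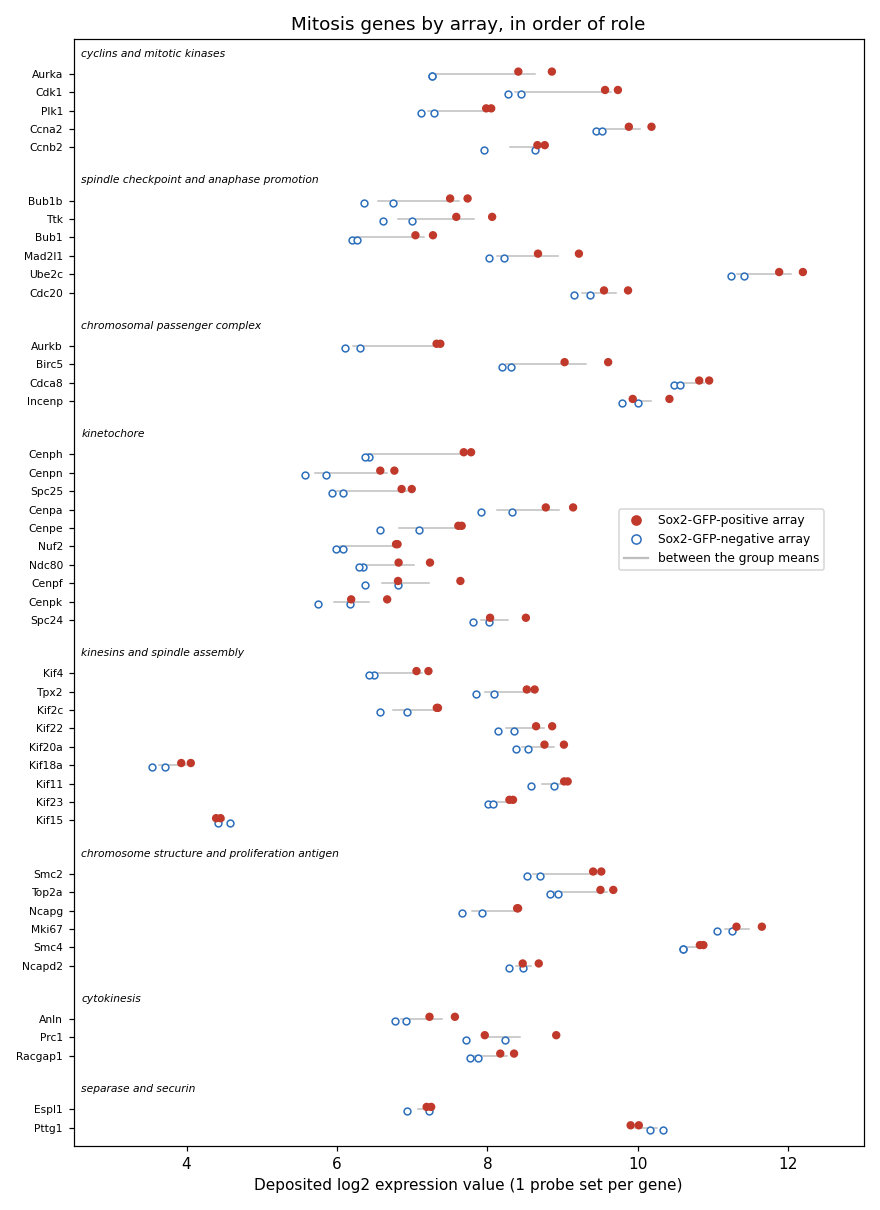
Deposited log2 values of the 45 mitosis genes, grouped by role, with filled red points for the 2 Sox2-GFP-positive arrays and open blue points for the 2 Sox2-GFP-negative arrays. The grey line joins the group means. The red points lie to the right of the blue points without overlap in 38 genes, and to the left in Pttg1 alone.

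The cyclins and mitotic kinases held 2 of the 3 widest separations. Aurka, the Aurora kinase of centrosomes and spindle poles, read 8.86 and 8.41 in positive cells, against 7.26 and 7.27 in negative cells. This was the largest mean difference of the 45, 1.37 ± 0.23 (SE, limma), or 2.58-fold higher. Cdk1, the kinase that starts mitosis, read 9.73 and 9.56 in positive cells, against 8.28 and 8.45 in negative cells, 2.44-fold higher. Plk1, the polo-like kinase that works from mitotic entry to cytokinesis, read 7.98 and 8.05 in positive cells, against 7.12 and 7.29 in negative cells. In these 3 genes the nearest arrays of the groups stood 0.70 to 1.14 log2 units apart. The cyclins themselves differed by less. Ccna2, the cyclin of S and G2 phase, was 1.46-fold higher, and Ccnb2, a B-type cyclin, read 8.66 and 8.76 in positive cells, against 7.96 and 8.63 in negative cells, so that negative replicate 2 came within 0.03 of a positive array.

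All 6 genes of the spindle checkpoint and of its target, the anaphase-promoting complex, lay above the negative arrays. The kinases of the checkpoint stood furthest apart. Bub1b, which encodes the checkpoint protein BubR1, read 7.74 and 7.50 in positive cells, against 6.35 and 6.74 in negative cells, 2.11-fold higher. Bub1, the kinase that recruits checkpoint proteins to the kinetochore, read 7.04 and 7.28 in positive cells, against 6.20 and 6.27 in negative cells. Ttk, the kinase that sets the checkpoint off, was 2.03-fold higher in positive cells, and Mad2l1, which holds Cdc20 inactive, 1.77-fold. At the other end of the pathway the differences on the brightest probe sets were smaller. Cdc20, the activator of the anaphase-promoting complex, read 9.87 and 9.55 in positive cells, against 9.15 and 9.36 in negative cells, 1.37-fold higher. Other probe sets of Cdc20 had log2 differences of 0.68 and 0.82, the latter as large as that of Mad2l1, so its place depended on the probe set. Ube2c, the ubiquitin-conjugating enzyme that serves that complex, read 12.19 and 11.88 in positive cells, against 11.23 and 11.41 in negative cells.

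The chromosomal passenger complex corrects faulty microtubule attachments and moves to the midzone in anaphase. On their brightest probe sets, its 4 genes divided into a pair with large and a pair with small differences. Aurkb, its kinase, read 7.37 and 7.32 in positive cells, against 6.31 and 6.11 in negative cells, 2.20-fold higher. Birc5, which encodes survivin, read 9.61 and 9.03 in positive cells, against 8.19 and 8.32 in negative cells, 2.09-fold higher. Cdca8, which encodes borealin, was 1.28-fold higher, but its other probe sets had larger log2 differences, 0.55 and 0.78. Incenp, the scaffold that holds the complex together, read 9.93 and 10.42 in positive cells, against 9.79 and 10.004 in negative cells, so that its groups overlapped. Other probe sets of Incenp had log2 differences of 0.56 and 0.81 without overlap, and dimmer ones -0.11 and -0.22 with overlap. The division of the complex therefore depended on the probe set.

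Among the 10 kinetochore genes, 9 had both positive arrays above both negative arrays, with a median log2 difference of 0.78. Cenph, a subunit of the inner kinetochore network on centromeric chromatin, had the widest gap of all 45 genes. It read 7.69 and 7.78 in positive cells, against 6.42 and 6.37 in negative cells, 2.53-fold higher. Cenpn, a subunit of the same network that reads the centromeric nucleosome, read 6.58 and 6.76 in positive cells, against 5.57 and 5.86 in negative cells. Cenpa, the histone H3 variant that marks the centromere, read 9.14 and 8.78 in positive cells, against 7.92 and 8.33 in negative cells, 1.78-fold higher. The Ndc80 complex, the microtubule coupler of the outer kinetochore, can be followed through all of its subunits. Spc25 read 6.86 and 6.99 in positive cells, against 5.93 and 6.08 in negative cells, 1.89-fold higher. Nuf2 was 1.69-fold higher, with positive arrays at 6.79 and 6.81 against 6.08 and 5.99 in negative cells. Ndc80 itself read 7.24 and 6.82 in positive cells, against 6.35 and 6.30 in negative cells, 1.63-fold higher. Spc24 separated by 0.02 only, at 8.51 and 8.04 in positive cells, against 7.81 and 8.02 in negative cells. Its difference was 0.70 in replicate 1 and 0.02 in replicate 2. Cenpf, a large protein of the outer kinetochore, overlapped at 6.81 and 7.64 in positive cells, against 6.37 and 6.81 in negative cells.

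On their brightest probe sets, kinesins and spindle assembly genes had a smaller median difference, 0.43 over 9 genes. Of these 8 were separated above, as were 35.5% of all genes. Whether the median differs from that of the kinetochore genes was not tested. Further probe sets brighter than the median gene had log2 differences of 0.56 to 1.10 in Kif11, Kif22 and Kif23, larger than their brightest. Those of Kif2c gave 0.82 and 0.38, against 0.59 on its brightest. Kif4, a chromosome-bound kinesin, and Tpx2, which activates Aurora A on the spindle, were 1.60-fold and 1.53-fold higher. Kif11, the kinesin that pushes the spindle poles apart, read 9.07 and 9.02 in positive cells, against 8.58 and 8.88 in negative cells, 1.24-fold higher. Kif23, a motor of the central spindle, read 8.29 and 8.34 in positive cells, against 8.004 and 8.07 in negative cells, 1.21-fold higher. Kif15, which assists Kif11, overlapped at 4.45 and 4.39 in positive cells, against 4.42 and 4.58 in negative cells, a difference of -0.07 that turned above 0 with equal array medians or spike-in scaling. Kif18a, which dampens chromosome oscillations, read 3.93 and 4.06 in positive cells, against 3.55 and 3.71 in negative cells. The lower quartile of all probe sets was 4.19 to 4.25 on the 4 arrays, so that Kif18a lay below it and Kif15 just above.

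The genes of chromosome structure ranged widely. Smc2, the shared core of both condensins, read 9.41 and 9.51 in positive cells, against 8.53 and 8.70 in negative cells, 1.80-fold higher. Top2a, the topoisomerase that untangles sister chromatids, read 9.50 and 9.67 in positive cells, against 8.94 and 8.84 in negative cells, 1.63-fold higher. Ncapg, a subunit of condensin I, was 1.53-fold higher, while its partners Smc4 and Ncapd2 were 1.19-fold and 1.15-fold higher. Ncapd2 overlapped, at 8.47 and 8.68 in positive cells, against 8.29 and 8.47 in negative cells. Mki67, the proliferation antigen Ki-67 that coats mitotic chromosomes, read 11.31 and 11.65 in positive cells, against 11.06 and 11.26 in negative cells, 1.25-fold higher. The nearest arrays of its groups were 0.05 apart.

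In cytokinesis, Prc1, which bundles the microtubules of the midzone, varied more within the groups than between them, at 7.97 and 8.92 in positive cells, against 7.72 and 8.24 in negative cells. Replicate 2 was the higher array in both groups. Anln, which encodes the contractile ring protein anillin, was 1.46-fold higher. Racgap1, a protein of the midzone, was 1.36-fold higher.

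The pair that carries out sister separation did not share the difference. Espl1, which encodes separase, read 7.25 and 7.19 in positive cells, against 7.23 and 6.93 in negative cells, an overlap with a difference of 0.14. Pttg1, which encodes securin, was the only one of the 45 with both positive arrays below both negative arrays. It read 9.90 and 10.01 in positive cells, against 10.34 and 10.17 in negative cells (log2 difference -0.29 ± 0.19 SE, limma adjusted p = 0.519). Its other probe sets disagreed with each other. One read 9.04 and 8.82 in positive cells, against 8.59 and 8.70 in negative cells, and the dimmest read 5.67 and 6.30 in positive cells, against 6.81 and 6.89 in negative cells. The direction for Pttg1 depended on the probe set, and spike-in scaling put its brightest probe set at 0.50.

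**Figure D2:**
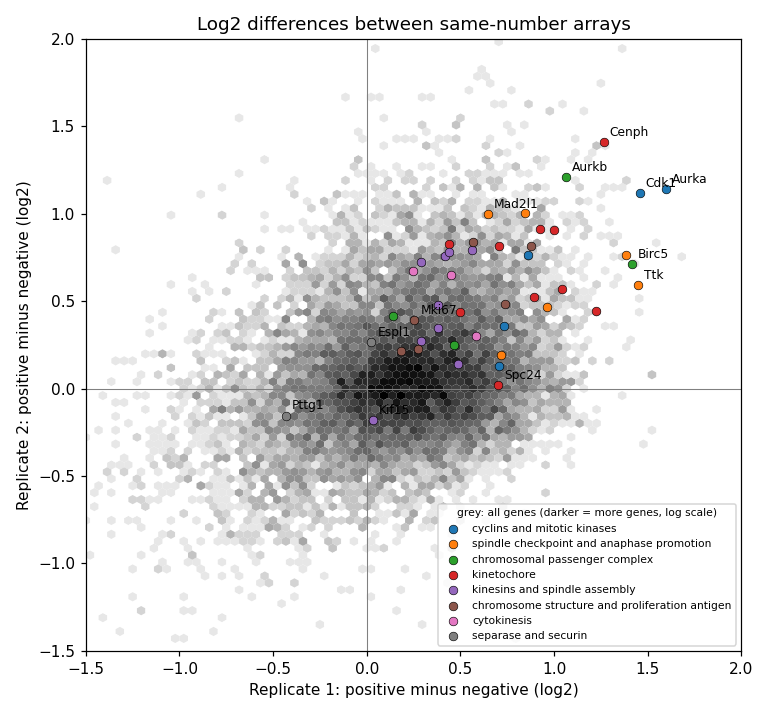
Log2 difference, positive minus negative, between the replicate 1 arrays (horizontal) and likewise for replicate 2 (vertical) for the 45 mitosis genes, coloured by role, over the density of all 18193 genes in grey. All but Pttg1 lie right of 0, and all but Pttg1 and Kif15 lie above 0.

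The difference was seen for both replicate numbers. It was positive in 44 of the 45 genes for replicate 1 (median 0.65) and in 43 for replicate 2 (median 0.57). Over all genes those medians were 0.19 and 0.06. Single genes leaned to one number or the other. Birc5 differed by 1.41 in replicate 1 and by 0.71 in replicate 2, and Cenpa by 1.22 and 0.44. Mad2l1 leaned the other way, at 0.65 and 0.999. Spc25 differed by nearly the same amount in both, at 0.92 and 0.91, and Smc2 by 0.88 and 0.82.

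Genes with bright probe sets had smaller differences than those of middle signal. The 6 genes with a mean level of at least 10 had a median difference of 0.30, against 0.68 for the 37 with a mean between 6 and 10. The Spearman correlation between mean level and difference was -0.28 across the 45 genes, which share the same arrays, and 0.07 across all genes. The signal of 41 of the 45 was at or above that of the median gene (6.29).

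Further probe sets of the same genes gave a second reading of the same RNA. Of the 45 genes 30 had more than 1 probe set, which adds 53 readings. Among the 27 of these at or above the level of the median gene, 23 had both positive arrays above both negative arrays, 1 had them below and 3 overlapped. Of all genes at or above that level, 39.8% lay above and 16.8% below on their brightest probe set. In 18 of the 27 the difference was larger than in the brightest probe set of the same gene. For Kif23, whose brightest probe set differed by 0.28, the next read 7.84 and 7.73 in positive cells, against 6.55 and 6.83 in negative cells. Incenp, which overlapped above, read 8.11 and 8.39 in positive cells, against 7.40 and 7.48 in negative cells on another probe set. The 26 dimmer probe sets were mixed, with 11 above, 6 below and 9 overlapping. Over all genes 35.5% lay above and 14.0% below, so the dimmer probe sets are not read as a result. On the second brightest probe set the difference lay below 0 in Ttk, Cenpa, Cenpk, Kif18a, Top2a, Smc4, Ncapd2 and Anln, in all but Smc4 on a probe set dimmer than the median gene.

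**Figure D3:**
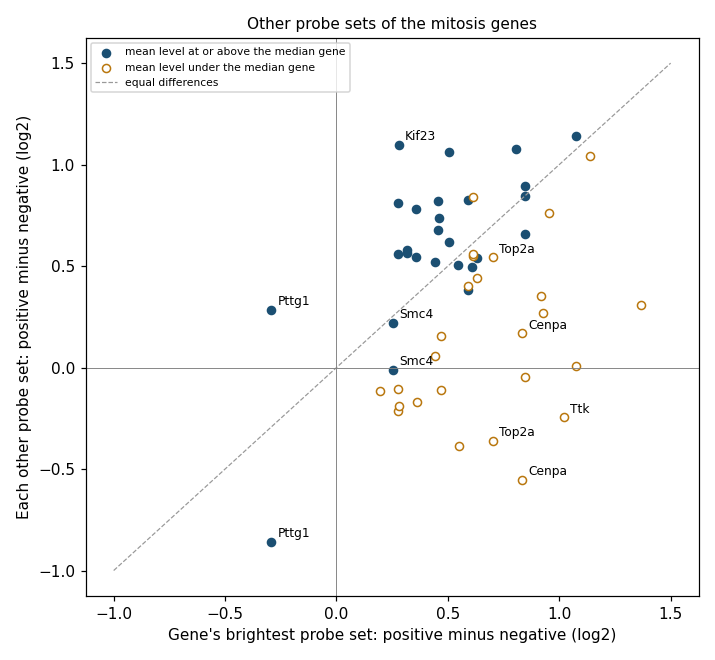
Log2 difference of each further probe set of the mitosis genes (vertical) against that of the gene's brightest probe set (horizontal), with filled points for probe sets at or above the median gene's level and open points for dimmer ones. Of the 27 filled points, 18 lie above the dashed line of equal differences, and the negative values come mostly from open points, Pttg1 and Smc4 excepted.

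Markers of other cells also differed between the arrays, although both groups were gated in the same way. All 9 measured fibroblast and pericyte markers lay below the negative arrays. None passed limma without the block, but with the replicate block 4 of the 9 were called lower (Lum, Dpt, Pdgfrb and Dcn), as were 1 endothelial marker (Emcn) and 1 suprabasal marker (Flg), against 0.868% of all genes. The mean level of the 9 fibroblast and pericyte markers, relative to each gene's mean over all arrays, was 0.04 and -2.54 in the positive arrays. In the negative arrays it was 2.10 and 0.40. The summed linear signal was 15451 and 1867 in the positive arrays, against 41660 and 18503 in the negative arrays, and Pdgfra, the gene of the gated CD140a, read 5.93 and 4.85 in positive cells, against 7.83 and 5.96 in negative cells. Endothelial markers separated below in 1 of 6, and immune markers below in 1 of 7 and above in 1, where 14.0% of all genes lay below. Their median log2 differences were -1.245 and -1.10, against 0.14 over all genes. The mean difference was above 0 in 0 of the 6 endothelial and 2 of the 7 immune markers. Both lists had their highest mean level in negative replicate 1. The lowest value on any array was 2.73, so a value above 0 does not show that a marker was detected. The same relative level for the mitosis genes was 0.30 and 0.32 in the positive arrays, against -0.37 and -0.25 in the negative arrays. With the array richest in these markers, negative replicate 1, left out, 39 of the 45 mitosis genes lay above and 2 below, where 46.5% of all genes lay above and 23.9% below the single negative array left. The median difference was 0.62. The negative array left still read above both positive arrays in fibroblast and pericyte markers (0.40, against 0.04 and -2.54). Leaving out negative replicate 1 therefore does not remove the difference in fibroblast and pericyte markers. In the other 2 lists the negative array left lay between the positive arrays. It read -0.27 for endothelial markers, against -0.26 and -0.95, and -0.24 for immune markers, against 0.0039 and -0.67.

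Keratinocyte markers went both ways, with 3 of 6 above and 2 below, where 35.5% of all genes lay above and 14.0% below. Krt5, a keratin of basal keratinocytes, read 13.24 and 13.26 in positive cells, against 13.32 and 13.26 in negative cells, and Krt14, its partner, 13.07 and 13.05 in positive cells, against 13.04 and 12.99 in negative cells. Cdh1, the epithelial cadherin, read 9.64 and 10.36 in positive cells, against 10.74 and 11.18 in negative cells. Epcam, used for the gate, overlapped at 10.75 and 11.79 in positive cells, against 11.24 and 11.80 in negative cells. Of 8 suprabasal keratinocyte markers, 4 lay below the negative arrays and 1 above. Krt10, a keratin of cells that have left the basal layer and stopped dividing, read 11.15 and 9.57 in positive cells, against 12.17 and 11.88 in negative cells. The part of these other populations in the mitosis gene difference was not tested.

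Neighbouring genes of the cell cycle were compared by lists, where 35.5% of all genes lay above and 14.0% below. Among 28 other kinetochore and centromere genes, 16 lay above and none below, with a median of 0.38. Knl1, the scaffold on which checkpoint proteins gather, read 7.27 and 7.20 in positive cells, against 6.32 and 6.39 in negative cells. The next widest gaps were those of Sgo1, which guards centromeric cohesion, Zwilch, of the checkpoint complex that brings dynein to kinetochores, and Cenpw, of the inner kinetochore (differences of 0.75, 0.86 and 0.85). Zwint and Cenpc1, also kinetochore proteins, ran near or below 0, at -0.22 and -0.02 with overlapping arrays. Of 23 other spindle, midzone and cytokinesis genes, 15 lay above and 1 below, with a median of 0.63. Ect2, which is needed to form the cleavage furrow, read 7.35 and 7.50 in positive cells, against 6.18 and 6.55 in negative cells. Spag5, Hmmr and Tacc3, which act at spindle microtubules, differed by 0.88, 1.05 and 0.87. Bora, the cofactor through which Aurora A activates Plk1, was the gene below, at 6.99 and 6.74 in positive cells, against 7.26 and 7.48 in negative cells.

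Regulators of mitotic entry and of cell cycle transcription were mixed, with 15 of 28 above and 2 below. Shares over all genes were 35.5% above and 14.0% below. E2f7, a repressor of the E2F family, and Wee1, the kinase that restrains Cdk1, led them. Wee1 read 9.01 and 9.67 in positive cells, against 8.16 and 8.05 in negative cells, and Cdc25c, the phosphatase that opposes it, read 7.41 and 6.94 in positive cells, against 6.10 and 6.33 in negative cells. E2f1, an activator of the same family, and Rbl1, a pocket protein that binds E2F factors, differed by 0.96 and 1.03. Foxm1 and Mybl2, the activators of G2 and M phase genes, differed by 0.45 and 0.55 with both positive arrays above. Lin54, the DNA-binding subunit of the DREAM complex, and E2f2, a further E2F factor, were the 2 below. Lin54 read 6.15 and 7.45 in positive cells, against 7.50 and 7.71 in negative cells.

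The list of the anaphase-promoting complex, whose subunits are present in resting cells too, also holds its activator Fzr1, its enzyme Ube2s and its inhibitor Fbxo5. Of its 17 genes 12 lay above, these 3 among them, and none below, with a median of 0.47. By comparison, 35.5% of all genes lay above and 14.0% below. Anapc16 and Anapc15 stood furthest apart, at 0.90 and 0.79, followed by Cdc27 and Cdc26, at 0.48 and 0.60. Anapc5, a scaffold subunit, overlapped at 11.48 and 11.18 in positive cells, against 11.60 and 11.35 in negative cells. Cohesin and the other condensin genes had the smallest median of the 8 neighbouring lists, 0.19. Of these 17 genes, 8 lay above (47.1%) and 4 below (23.5%), both somewhat over the shares of all genes. The 4 below were Smc1a, Pds5a, Stag2 and Nipbl, all of cohesin or its loading and release, with differences of -0.42 to -0.20. The widest gaps above were those of Ncapd3, Stag1, Ncaph and Cdca5 (0.64, 0.44, 0.75 and 0.55).

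Of the neighbouring lists, DNA replication genes had the highest share above, with 28 of 34 above, none below and a median of 0.54. Across all genes, 35.5% lay above and 14.0% below. Tk1, the thymidine kinase of S phase, read 9.07 and 8.87 in positive cells, against 7.93 and 7.72 in negative cells. Gins1, of the replicative helicase, Cdc6, its loader, and Mcm2, of its motor ring, differed by 0.98, 0.83 and 0.97. The median difference of the list was 0.72 in replicate 1 and 0.39 in replicate 2. Of the 11 cyclins and kinases of G1, 6 lay above. Ccnd1, the cyclin that answers to growth factors, read 11.30 and 11.77 in positive cells, against 10.45 and 10.13 in negative cells, and Ccne2, Mnat1 and Ccne1 differed by 1.01, 0.66 and 0.86. No gene of these neighbouring lists passed the limma test over all genes, with or without the replicate block.

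**Figure D4:**
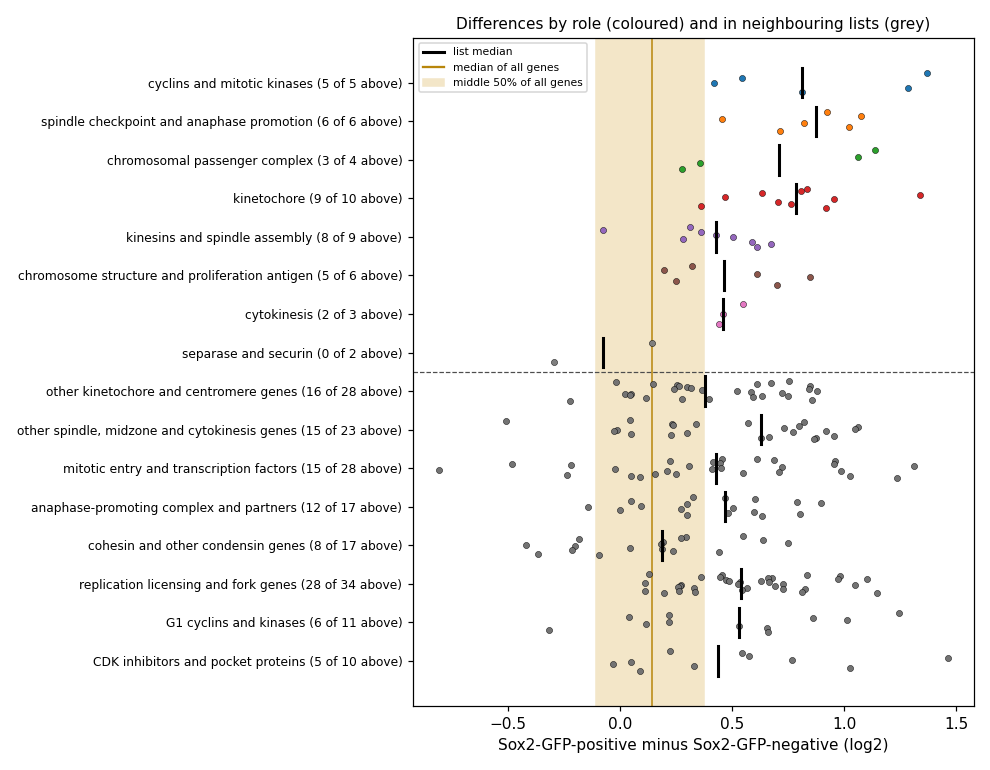
Log2 difference, positive minus negative, of each gene in the 8 roles of the mitosis list (coloured) and in 8 neighbouring lists (grey), with black bars at list medians. The band holds the middle 50% of all genes and the line their median of 0.14. Separase and securin, and cohesin with the other condensin genes, have the medians nearest to or below that line, at -0.07 and 0.19.

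The promoters of the mitosis genes were read because the genes lay higher together. G2 and M phase genes are known for the CHR element (cell cycle genes homology region, TTTGAA), which the DREAM and Mybl2-Foxm1 complexes bind, and for CCAAT boxes bound by NF-Y. RefSeq windows (GRCm38.p6) from 250 bases before to 50 bases after the start were found for 39 of the 46 genes, 42 windows in all. Shown are the 150 bases before the start, 5′ to 3′ on the strand of the gene, for the 4 genes with the widest separation whose stretch lies outside every RefSeq transcript of the gene. Capitals mark the letters TTTGAA or CCAAT on either strand.
Cdk1: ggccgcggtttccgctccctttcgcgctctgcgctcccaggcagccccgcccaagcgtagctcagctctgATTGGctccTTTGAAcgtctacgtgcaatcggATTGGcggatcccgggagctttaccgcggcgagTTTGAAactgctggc
Spc25: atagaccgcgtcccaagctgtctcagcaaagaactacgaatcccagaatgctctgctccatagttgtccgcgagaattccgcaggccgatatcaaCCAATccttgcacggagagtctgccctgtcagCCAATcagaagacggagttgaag
Bub1: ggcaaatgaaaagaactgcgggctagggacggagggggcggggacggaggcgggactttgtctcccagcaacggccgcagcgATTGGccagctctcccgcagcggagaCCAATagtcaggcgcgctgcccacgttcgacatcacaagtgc
Birc5: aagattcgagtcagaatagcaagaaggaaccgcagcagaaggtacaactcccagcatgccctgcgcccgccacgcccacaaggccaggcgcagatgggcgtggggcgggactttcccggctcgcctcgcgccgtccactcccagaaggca
The stretches lie at chr10:69352913-69353062 (Cdk1, minus strand), chr2:69206214-69206363 (Spc25, minus strand), chr2:127831860-127832009 (Bub1, minus strand) and chr11:117849087-117849236 (Birc5, plus strand).

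These 4 stretches differ in motif content although each gene lay above in both positive arrays. Cdk1 holds TTTGAA at -71 and -15 and CCAAT boxes, in reverse, at -80 and -48. Spc25 and Bub1 hold pairs of CCAAT boxes, and the TTTGAA of Spc25 starts at 25 after the start, outside the stretch shown. Birc5 holds neither motif in its window. Over all windows of the mitosis genes, TTTGAA stood on either strand in 30 of 42 (71.4%), against 17.9% of all 32851 windows and 13.4% of the 18109 windows of genes on the array. CCAAT stood in 33 of 42 (78.6%), against 37.4% of all windows, and both motifs in 61.9%, against 6.95% of all windows. A match to TTTGAA overlapped one to CCAAT in 1 case. Of the 38 matches to TTTGAA, 28 began within 50 bases of the start, and the median position was -16, against -67 for CCAAT.

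Differences were set beside motif content within the list. The 29 measured genes with TTTGAA had a median log2 difference of 0.61, and the 9 without it 0.81. For CCAAT the order was the other way, with 0.68 in the 29 genes that hold it and 0.59 in the 9 that do not. The other spindle, midzone and cytokinesis genes held TTTGAA in 65.2% of their windows, and the other kinetochore and centromere genes in 39.3%. Replication genes held it in 10.7% and CCAAT in 71.4%, and the anaphase-promoting complex with its partners in 15.8% and 42.1%. A match is a description of letters in these windows, not evidence that a factor was bound.

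**Figure D5:**
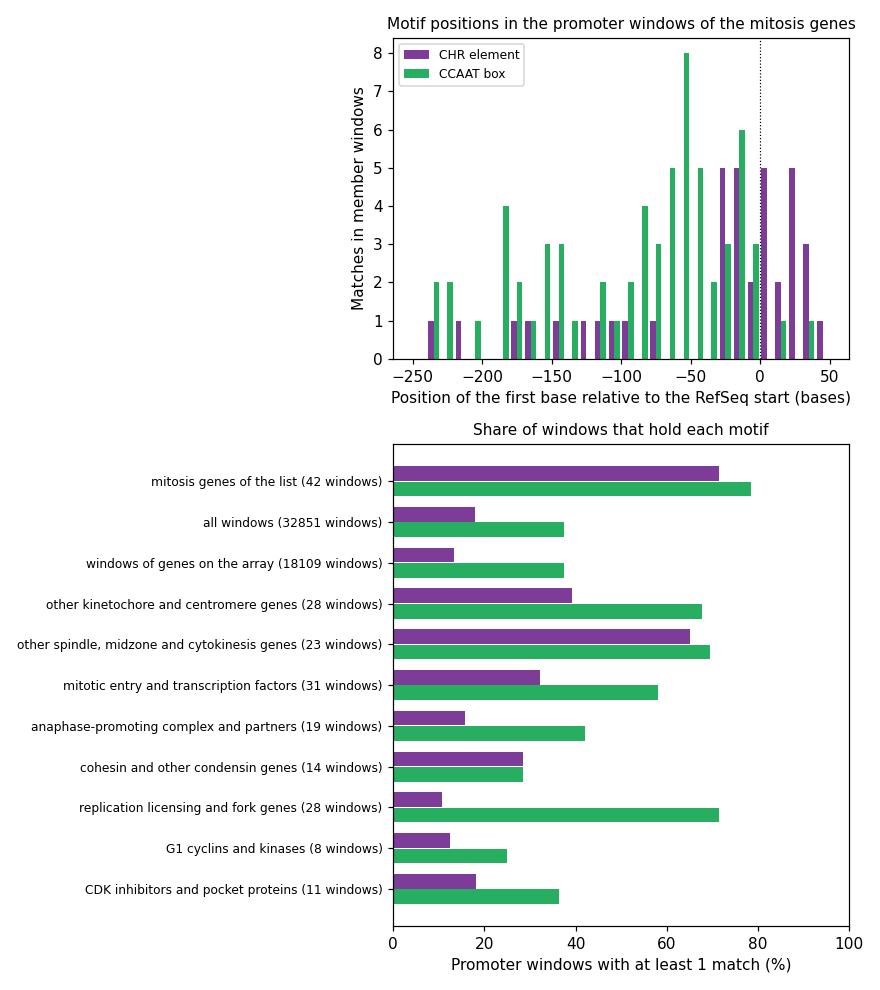
Upper panel, number of matches to the CHR element (purple) and the CCAAT box (green) by position relative to the RefSeq start in the 42 windows of the mitosis genes, in steps of 10 bases. Lower panel, percent of windows with at least 1 match in the mitosis genes, in all windows, in those of genes on the array and in the neighbouring lists. The mitosis genes stand at 71.4% for the CHR element, against 17.9% of all windows.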

How the data were processed

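The authors deposited 1 table of processed log2 values (45101 probe sets, 4 arrays, values from 2.73 to 14.36). The log2 scale was read from the values. The submitters' processing notes name R 2.14.0. How arrays were corrected, normalized and summarised is not stated in the labels, so values may carry effects of those steps. The table holds no detection calls. Control probe sets (64) were left out, 34945 probe sets had 1 symbol in the platform annotation, and each of 18193 genes was taken from its brightest. Groups came from the sample titles. The test was limma 3.58.1 in R 4.3.3 over all genes with group as the only term, with 2 residual degrees of freedom and a prior of 2.92, checked on simulated data. The members, lists, named genes and alternatives were chosen with earlier results of these data known. Values in every array are given for the genes with the 10 widest gaps, those that overlap or lie below, the 3 smallest differences and fixed examples of each role, and up to 4 neighbours per list, with a few more chosen after their values were seen. Promoters shown were limited, after the rule was set, to stretches outside the gene's transcripts. Protein sequences were not used here.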

Additional observations from a re-analysis of the deposited data

How the results depend on the processing

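Of the 626 values of single mitosis genes under the alternatives, 611 kept their direction and 15 did not. Many of the 611 could not turn. The replicate block, the other priors and leaving out dim genes change no difference. The 15 genes with 1 probe set also keep their value when other probe sets are used. Of the 15 values that turned, 9 did so on the second brightest probe set. With the replicate number as a block (replicate block), limma called 13 genes higher and 158 lower over all genes and none of the 45. The labels do not say that the number marks a tumour, and the deviations of same-number arrays correlated with r = 0.16 across all genes. The block together with quantile normalization called 16 and 155 genes, and a trended prior 1 and 18. Equal medians gave a median difference of 0.69 for the mitosis genes. Setting arrays to equal signal on 24 poly-A spike-in controls, which lay 0.79 lower in positive arrays, raised every difference by that amount. It called 12559 genes higher (69.0%) and 158 lower, among them 44 of the 45 mitosis genes, left 0 below, and put their median at 1.40, with the median of all genes at 0.93. Relative to all genes the median was 0.47 there too, and 0.42 after quantile normalization. That scaling turned Kif15 to 0.72 and Pttg1 to 0.50, and equal medians turned Kif15 to 0.00671.

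On the second brightest probe set, 33 genes lay above and 5 below, where 34.5% of all genes lay above and 14.2% below. The 15 genes with a single probe set kept their main value in this count, so it gives a second reading for 30 genes only. Differences turned in Ttk (-0.25), Cenpa (-0.55), Cenpk (-0.11), Kif18a (-0.17), Top2a (-0.36), Smc4 (-0.011), Ncapd2 (-0.12), Anln (-0.39) and Pttg1 (0.28). Leaving out each array in turn left 39 to 42 genes above, 1 to 2 below and a median of 0.60 to 0.65, with 0 genes called in any of these fits. With 1 array left in a group separation is easier, and 46.5% to 55.2% of all genes then lay above and 23.4% to 27.96% below. Differences then ran from -0.15 to 0.00203 for Kif15, from -0.0139 to 0.94 for Prc1 and from -0.00531 to 0.29 for Espl1. The cause of these shifts was not tested. No alternative changed the direction of the median, and an array without detection calls cannot order values near its floor.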

Other observations

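Inhibitors of cyclin-dependent kinases were read beside the mitosis genes. Of 10 CDK inhibitors and pocket proteins, 5 had both positive arrays above both negative arrays and none had them below, where 35.5% of all genes lay above and 14.0% below. A share of this size in 10 genes is not read as a result about the inhibitors. Cdkn2a, whose products restrain Cdk4 and stabilise p53, read 5.99 and 6.26 in Sox2-GFP-positive cells, against 4.75 and 4.58 in Sox2-GFP-negative cells (log2 difference 1.46). Cdkn2b, its neighbour with the same target, read 9.39 and 9.66 in positive cells, against 8.77 and 8.74 in negative cells. Cdkn1b, an inhibitor of Cdk2, differed by 0.54. Cdkn1a, the p53-dependent inhibitor, overlapped at 11.68 and 11.48 in positive cells, against 11.10 and 11.61 in negative cells. None passed the limma test over all genes (lowest adjusted p = 0.18, and 0.0807 with the replicate block).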
